A study of Homo sapiens with 6 samples.

Results

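The genes described here encode 10 enzymes of ganglioside metabolism, with the synthesis of the glycolipid GD2 at the centre. They were chosen by name from the enzymes of the pathway, though with earlier results of these data known. All 10 were found by symbol among the 60709 genes used from the deposited count table. Messenger RNA was sequenced from SH-SY5Y, an established human neuroblastoma line with neuron-like features. Per the labels, DMSO alone was given to the 3 controls, and DMSO plus an NRF2-derived peptide carrying a fumarate, in water, to 3 treated wells, with lysis after 5 h in both groups. Only table columns numbered 4, 5 and 6 carry numbers of labelled samples, those of control replicates 1, 2 and 3, so the peptide-treated samples (numbered 13, 14 and 15) were not analysed here and no effect of the peptide is reported. If the columns were numbered afresh by the submitters, the libraries called controls here could be treated ones.

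Gangliosides are glycolipids that carry sialic acid. Synthesis starts from ceramide, to which glucose and then galactose are added, and a first sialic acid gives GM3. GD3 synthase adds another sialic acid to GM3 and so opens the b-series, and GM2/GD2 synthase turns GM3 into GM2 and GD3 into GD2. Later enzymes add galactose and further sialic acids, which gives the complex gangliosides of neurons. GD2 is abundant on many neuroblastomas, where it is the target of therapeutic antibodies. No lipid was measured in this study, and the values below are levels of messenger RNA.

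Total counts ranged from 8887854 to 11397407 per library. A count of 0 is compatible with up to 3 counts, which is 0.263 to 0.338 CPM, counts scaled to a library total of 1000000. A gene is called detected here if each of the 3 libraries has 10 or more counts for it. Of protein-coding genes, 62.3% met this minimum. The share of counts from mitochondrially encoded genes was 3.83 to 4.11% in replicates 1 and 2 and 6.25% in replicate 3, which also differed from the others along the GC content of transcripts. The labels do not say whether the wells were independent cultures, so the SD given with each mean is the spread between these libraries and may be technical. Markers of the cell line were mostly present. Of 10 markers of noradrenergic neuroblastoma, 9 were detected, with a median of 291 ± 22.2 TPM (SD, n = 3), where TPM is the count per transcript length scaled to a library sum of 1000000, but TH had 0 counts in each. Mesenchymal markers were detected in 10 of 12 cases, with a median of 11.0 ± 1.25 TPM. They ranged from TWIST1 at 322 ± 43.3 TPM and VIM at 306 ± 11.7 TPM to PRRX1 at 0 counts. The 5 leukocyte markers had at most 1 count in any library, and CDH1 (epithelial) and SOX10 (Schwann lineage) had 0 counts. Of the fibroblast list 4 of 5 genes were detected, with COL3A1 at 163 ± 6.04 TPM and COL1A2 at 0.0927 TPM.

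Upstream sequences are shown for the first enzyme of the pathway, for GM3 synthase and for GD3 synthase, because these genes stood at very different levels. For ST3GAL5, the first of its listed starts is used. RefSeq start windows (build GRCh38.p14, 250 bases before and 50 after each annotated start) held 5 of the 10 genes, UGCG, ST3GAL5, ST8SIA1, ST8SIA3 and NEU3. Printed is the part of a window before its start that no exon of the gene covers in GENCODE release 29, on the strand of the gene and from 5′ to 3′, with each CG dinucleotide in capitals. The stretch of UGCG lies upstream of the whole gene, while those of ST3GAL5 and ST8SIA1 lie inside the annotated gene span, since some transcripts start farther upstream.
UGCG, chr9:111896564-111896765, plus strand: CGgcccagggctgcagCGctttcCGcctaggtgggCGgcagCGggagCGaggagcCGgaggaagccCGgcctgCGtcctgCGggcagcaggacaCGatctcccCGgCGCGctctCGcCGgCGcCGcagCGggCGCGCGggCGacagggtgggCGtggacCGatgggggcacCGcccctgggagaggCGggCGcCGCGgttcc
ST3GAL5, chr2:85889056-85889240, minus strand: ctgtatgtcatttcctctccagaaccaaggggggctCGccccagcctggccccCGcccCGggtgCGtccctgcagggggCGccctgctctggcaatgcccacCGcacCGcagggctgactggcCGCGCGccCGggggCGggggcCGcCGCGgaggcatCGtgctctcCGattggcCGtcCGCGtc
ST8SIA1, chr12:22334715-22334957, minus strand: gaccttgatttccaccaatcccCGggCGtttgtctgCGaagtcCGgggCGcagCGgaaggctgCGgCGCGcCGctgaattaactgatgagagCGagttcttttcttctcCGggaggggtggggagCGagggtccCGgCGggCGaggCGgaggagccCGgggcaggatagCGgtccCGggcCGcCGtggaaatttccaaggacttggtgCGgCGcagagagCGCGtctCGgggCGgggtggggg
The printed stretches hold 30 CG dinucleotides in 202 bases for UGCG, 20 in 185 for ST3GAL5 and 28 in 243 for ST8SIA1. Over the whole windows of 300 bases, UGCG had 48 CG dinucleotides, ST3GAL5 had 36 and ST8SIA1 had 35, against a median of 14 over 35116 windows of all genes. The other windows of ST3GAL5 had 30, 48, 3 and 3, so its value depends on the start chosen. The letters GGGCGG of a GC box, searched on both strands, occurred in the 3 windows whose stretches are printed and in 45.0% of all windows. The letters TATAAA of a TATA box occurred in none of the 3 and in 11.5% of all windows. These matches describe the letters alone, and DNA methylation was not measured.

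Most of the pathway was expressed, while the gene at its branch point toward GD2 had a single count per library. Of the 10 genes, 8 were detected, where the share over all genes listed was 22.9% and that over protein-coding genes 62.3%. The exceptions were ST8SIA1, the GD3 synthase gene, and B3GALT4, which encodes the enzyme that converts GM2 and GD2 onward to GM1 and GD1b, with 7, 18 and 10 counts. Per transcript length, B4GALNT1 (GM2/GD2 synthase) had the highest mean of the 10 and ST8SIA1 the lowest.

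UGCG encodes glucosylceramide synthase, which adds glucose to ceramide and commits it to this pathway. UGCG (ENSG00000148154.10, chr9:111896766-111935369, plus strand) was measured at 24.6, 27.7 and 33.3 CPM in replicates 1, 2 and 3, from 263, 317 and 295 counts. Replicate 3 was the highest and replicate 1 the lowest. Its mean was 28.5 ± 4.42 CPM (SD, n = 3), a coefficient of variation of 15.5%, where counting error alone was 5.62 to 6.17% per library.

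Galactose is then added by 2 related lactosylceramide synthases. B4GALT6 (ENSG00000118276.11, chr18:31622247-31685836, minus strand) was measured at 45.0, 47.0 and 56.0 CPM, with a mean of 49.3 ± 5.88 CPM (SD, n = 3). As for UGCG, replicate 3 was the highest. B4GALT5, the other gene of this step, was higher than B4GALT6 in every library on the per-length scale, with 144, 139 and 139 TPM against 29.5, 31.1 and 35.1 TPM. B4GALT6 thus stood at 0.227 ± 0.0242 of the level of B4GALT5 (ratio of TPM, n = 3), and made up 17.0 to 20.1% of their summed TPM.

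ST3GAL5 encodes GM3 synthase, whose product is the parent of nearly all gangliosides of neurons. ST3GAL5 (ENSG00000115525.18, chr2:85837120-85905199, minus strand) was measured at 11.6, 13.0 and 9.94 CPM, from 124, 148 and 88 counts. Replicate 3 was here the lowest library. The mean was 11.5 ± 1.51 CPM (SD, n = 3). With 5.35 ± 0.845 TPM it was the lowest of the enzymes from ceramide to GM3, with no overlap with the 17.8 to 23.0 TPM of UGCG.

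ST8SIA1 (ENSG00000111728.11, chr12:22063773-22437041, minus strand) had 1, 1 and 1 counts, or 0.0935, 0.0875 and 0.113 CPM. Its 3 counts over all libraries correspond to an exact 95% Poisson interval of 0.0200 to 0.283 CPM, which covers counting error only. Of 19896 protein-coding genes, 5369 (27.0%) had at most 3 counts over the 3 libraries. The ratio of ST8SIA1 to ST3GAL5 per transcript length, over all counts, was 0.00530 with an exact 95% interval of 0.00109 to 0.0156, and 0.00939 with merged exons. An expressed level of ST8SIA1 was thus not detectable above a few counts at this depth. In GENCODE release 29, 161 exon bases of ST8SIA1 are shared with a pseudogene on its strand, and how reads on more than 1 gene were counted is not stated.

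**Figure D1:**
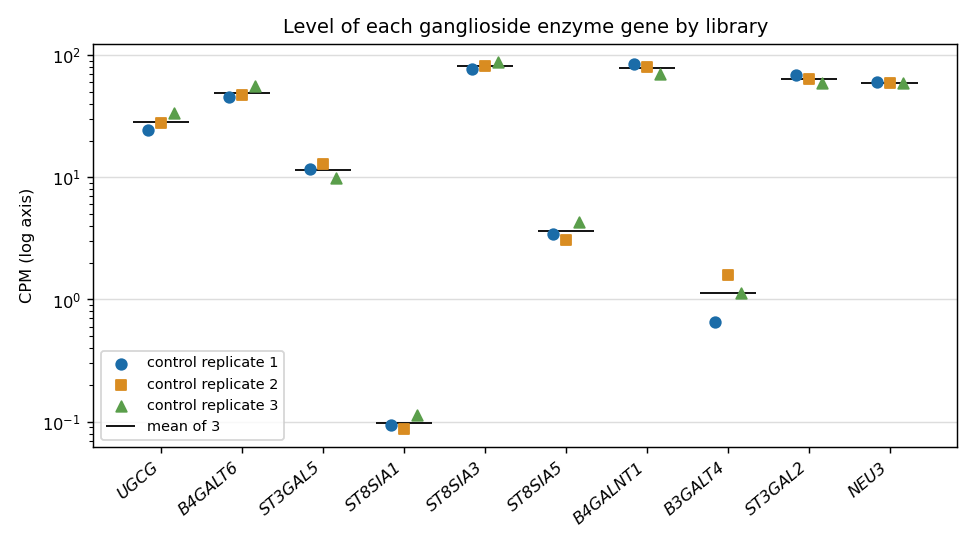
CPM of the 10 genes (log axis) in pathway order, with 1 point per control library and a line at the mean of 3. ST8SIA1 lies near 0.1 CPM in every library, B3GALT4 and ST8SIA5 lie below 5 CPM, and the other genes lie between 9.94 and 87.3 CPM; heights of different genes also depend on transcript length.

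The related alpha-2,8-sialyltransferases were not uniformly low. ST8SIA3 encodes an enzyme of neural tissue that adds sialic acid to sialylated glycoproteins and can, in enzyme assays, also use glycolipids. ST8SIA3 (ENSG00000177511.6, chr18:57350813-57371731, plus strand) was measured at 76.4, 81.7 and 87.3 CPM, from 817, 934 and 773 counts, with a mean of 81.8 ± 5.45 CPM (SD, n = 3). It was the highest of the 6 genes of this family in every library, with 59.2 to 64.2% of the family's summed TPM. ST8SIA2, which makes polysialic acid on the adhesion molecule NCAM, followed with 32.5 to 37.9%. These shares use the longest transcript. With the principal transcript, ST8SIA3 had 54.1 to 57.8% and ST8SIA2 29.3 to 34.6%. The share of ST8SIA5 was 2.00 to 2.71% with the longest transcript and 9.36 to 12.4% with the principal transcript.

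ST8SIA5 encodes the enzyme that adds sialic acid to GD3 and to complex gangliosides. ST8SIA5 (ENSG00000101638.14, chr18:46667821-46759257, minus strand) had 37, 35 and 38 counts, or 3.46, 3.06 and 4.29 CPM. Its counting error of 16.2 to 16.9% was close to its coefficient of variation of 17.4%, so the libraries differed by no more than about the sampling noise. Per length, ST8SIA5 reached 0.749 ± 0.107 TPM with its longest transcript of 13761 bases, but 3.21 ± 0.486 TPM with the principal transcript of 2716 bases. Over all counts it was 25.9-fold above ST8SIA1 per length, with an exact 95% interval of 8.63 to 127, and 131-fold with the principal transcript (43.7 to 646). ST8SIA4 and ST8SIA6 had at most 1 count in any library.

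B4GALNT1 encodes GM2/GD2 synthase, which adds N-acetylgalactosamine to GM3, GD3 and lactosylceramide. B4GALNT1 (ENSG00000135454.14, chr12:57623410-57633355, minus strand) was measured at 85.3, 80.2 and 69.4 CPM, from 912, 917 and 615 counts. Replicate 3 was the lowest, and the mean was 78.3 ± 8.09 CPM (SD, n = 3). With 40.3 ± 5.19 TPM it ranked above 76.0% of 19867 protein-coding genes. The ratio of B4GALNT1 to ST8SIA1 per length was 1418 over all counts, with an exact 95% interval of 485 to 6882 that rests on the 3 counts of ST8SIA1, and 2607 with the principal transcript (891 to 12648). Of the exon bases of B4GALNT1, 26.7% overlap a gene on the opposite strand, SLC26A10P. That gene had 23, 21 and 14 counts, and whether the counting used strand is not stated.

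B3GALT4 (ENSG00000235863.4, chr6:33277132-33284832, plus strand) was measured at 0.655, 1.58 and 1.13 CPM. Counting error was 23.6 to 37.8% per library, and the coefficient of variation was 41.1%, so no order of the libraries can be read from its 7, 18 and 10 counts. Per transcript length B3GALT4 stood at 0.0472 of the level of B4GALNT1 over all counts, with an exact 95% interval of 0.0328 to 0.0658, and at 0.0257 with the principal transcript (0.0178 to 0.0358). The step that uses up GD2 was thus also low in messenger RNA, though not as low as the step that supplies its precursor.

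ST3GAL2 encodes a sialyltransferase that caps GM1 and GD1b to give GD1a and GT1b. ST3GAL2 (ENSG00000157350.13, chr16:70375978-70439237, minus strand) was measured at 68.4, 63.2 and 59.6 CPM, with a mean of 63.7 ± 4.39 CPM (SD, n = 3). It exceeded B3GALT4, which makes its ganglioside substrates, 10.8-fold per length over all counts (exact 95% interval 7.74 to 15.6). ST3GAL2 also acts on glycoproteins.

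NEU3 encodes the sialidase of the plasma membrane, which removes sialic acid from gangliosides. NEU3 (ENSG00000162139.10, chr11:74988134-75018893, plus strand) was measured at 60.7, 58.9 and 59.3 CPM. It varied least of the 10 genes, with a mean of 59.6 ± 0.943 CPM (SD, n = 3) and a coefficient of variation of 1.58%, below its counting error of 3.85 to 4.36%. The lysosomal sialidase gene NEU1 was higher, with 45.0 ± 1.74 TPM against 25.4 ± 0.915 TPM for NEU3, and NEU4 had at most 2 counts in any library. The size of this gap depended on the length used. Of the summed TPM of these sialidase genes, NEU1 had 63.8% and NEU3 36.0% with the longest transcript. With the principal transcript the shares were 79.9% and 20.0%.

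Levels of the 10 genes can be ordered only per transcript length. With the longest transcript of each gene, the order from the top was B4GALNT1, B4GALT6, NEU3, ST3GAL2, UGCG, ST8SIA3, ST3GAL5, B3GALT4, ST8SIA5 and ST8SIA1. Neighbours overlapped between libraries for B4GALNT1 and B4GALT6, for ST3GAL2 and UGCG, and for UGCG and ST8SIA3, and the ranges of the other neighbours were apart. The mean over libraries of the median of the 10 genes was 19.4 ± 0.987 TPM. The median of their means was 20.1 TPM, with the undetected ST8SIA1 and B3GALT4 included. The same median was 23.99 TPM over those of the 13920 detected genes that have a length in GENCODE release 29, a set without undetected genes. The choice of length mattered, and B4GALNT1 itself went from 40.3 to 62.7 TPM with the principal transcript. With merged exons, the ranges of ST3GAL5 and B3GALT4 overlapped, and with the principal transcript ST8SIA5 stood above B3GALT4. In the mean over libraries, B4GALNT1 was first and ST8SIA1 last with all 3 lengths. In replicate 3, however, B4GALT6 stood above B4GALNT1 with the longest transcript (35.1 against 34.5 TPM) and with merged exons (38.6 against 31.7 TPM).

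**Figure D2:**
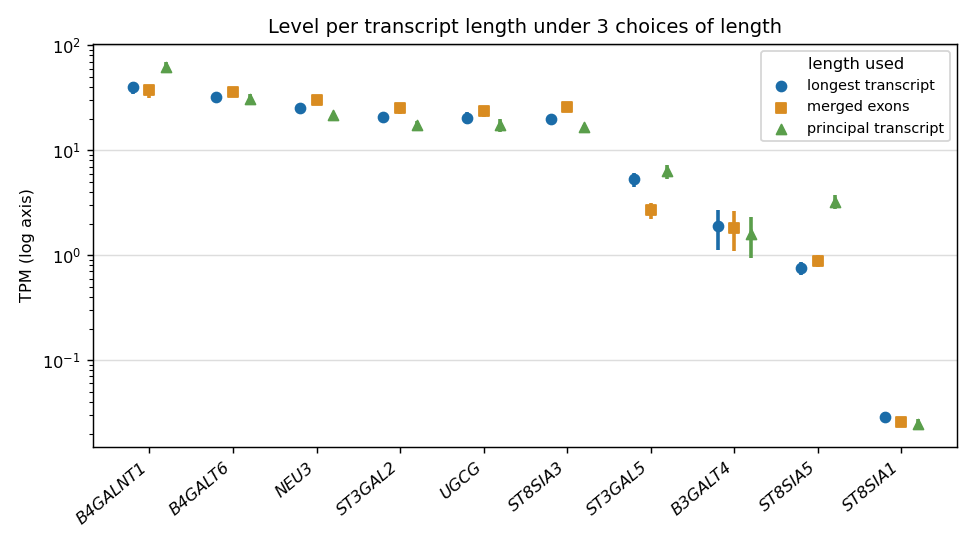
TPM of the 10 genes (log axis) with 3 definitions of transcript length; points are means of 3 control libraries and bars run from the lowest to the highest library. ST8SIA5 moves most, from 0.749 TPM to 3.21 TPM, and ST8SIA1 is at 0.0288 TPM or below in the mean.

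The spread between libraries was not the same for all enzymes. Among the 8 detected genes, the highest library exceeded the lowest by 1.03-fold (NEU3) to 1.40-fold (ST8SIA5), and the median coefficient of variation over all 13920 detected genes was 8.69%. Relative to the mean of replicates 1 and 2, replicate 3 was higher for B4GALT6 by 0.28 on the log2 scale and for UGCG by 0.35, and these genes have transcripts of 33.4 and 40.9% GC. It was lower for B4GALNT1 (-0.25, 58.3% GC) and ST3GAL2 (-0.14, 55.5% GC). Over 10290 genes the same difference had a Spearman correlation with GC of -0.73. After the trend with GC was removed, B4GALT6 differed by -0.02, B4GALNT1 by -0.08 and ST3GAL2 by -0.0036, and the SD of B4GALT6 went from 5.88 to 1.88 CPM and that of B4GALNT1 from 8.09 to 2.60 CPM. UGCG remained at 0.21, ST3GAL5 at -0.35 and ST8SIA5, whose counts were too low for it to enter the trend fit, at 0.45. Counting error per library was 5.62 to 6.17% for UGCG, 8.22 to 10.7% for ST3GAL5 and 16.2 to 16.9% for ST8SIA5. The SD was lower with the trend removed for 6 of these 8 genes, and ST3GAL5 and ST8SIA5 were the exceptions. The trend was fitted on these same libraries, and the share of all genes with a lower SD was not computed. The count of 6 is therefore not read as a trait of these enzymes. These values describe 1 library against 2 and carry no test.

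**Figure D3:**
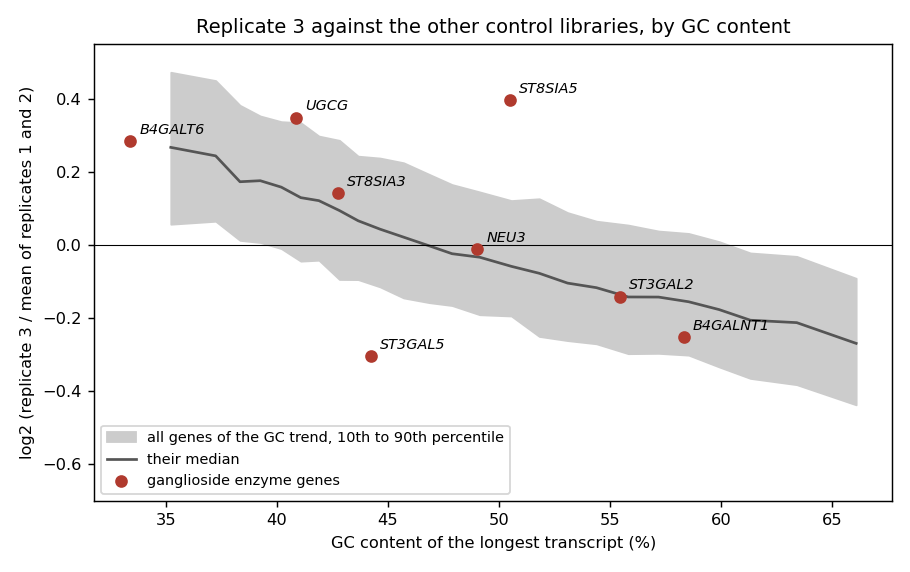
Log2 ratio of replicate 3 to the mean of replicates 1 and 2 against GC content of the longest transcript (%), for the 8 detected genes (points) and for 10290 genes (grey band and line). B4GALT6, ST8SIA3, NEU3, ST3GAL2 and B4GALNT1 lie inside or beside the band, and UGCG and ST8SIA5 (above) and ST3GAL5 (below) lie outside it. The band holds only genes averaging 100 or more counts, while ST8SIA5 had 35 to 38 counts per library and so more counting noise.

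Most genes that feed the pathway were also detected. Of 14 genes of ceramide synthesis, 11 (78.6%) were detected, beside 62.3% of protein-coding genes, with a median of 27.7 ± 0.911 TPM (n = 3). CERS2, a ceramide synthase for very long acyl chains, and DEGS1, the desaturase of the last step, were the highest with 207 ± 5.09 and 134 ± 18.4 TPM. DEGS2 and SPTLC3 were the lowest, each with at most 2 counts in any library. All 3 genes of glycolipid transport were detected, with PLEKHA8, which carries glucosylceramide through the Golgi, at 42.4 ± 1.25 TPM, GLTP at 38.6 ± 0.740 TPM and CERT1, the ceramide carrier, at 18.7 ± 0.654 TPM. All 10 genes for sialic acid and sugar donors were detected as well, with a median of 33.1 ± 1.09 TPM. CMAS, which activates sialic acid to its CMP form, was the highest with 79.5 ± 8.18 TPM, followed by the UDP-galactose carrier SLC35A2 with 59.9 ± 3.25 TPM. NANP with 9.93 ± 1.45 TPM and SLC35A3 with 1.77 ± 0.170 TPM were the lowest of that list. CMAS lies beside ST8SIA1 on chromosome 12, and its counts of 514, 616 and 412 stood against 1 in each library for ST8SIA1.

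Of 7 other glycosyltransferases listed for ganglioside synthesis, 6 (85.7%) were detected, beside 62.3% of protein-coding genes. B4GALT5, which acts before the first sialic acid, was the highest with 141 ± 3.07 TPM, followed by ST6GALNAC4 with 19.5 ± 0.421 TPM. ST3GAL3 had 2.84 ± 0.409 TPM, and ST6GALNAC6 was the lowest with 7, 1 and 1 counts. Genes listed for competing glycolipid branches had a median of 1.18 ± 0.183 TPM. Of these, 4 of 9 (44.4%) were detected, beside 62.3% of protein-coding genes. The highest of them was B3GNT5, which starts the lacto-series on lactosylceramide, with 31.8, 38.8 and 35.4 TPM. ST3GAL5, which uses the same precursor, was lower in every library, with 5.45, 6.14 and 4.45 TPM. UGT8, which makes galactosylceramide, had 4.09 ± 0.441 TPM. A4GALT, which starts the globo-series, had 5, 3 and 4 counts, and A3GALT2 and B3GALNT1 had 0 counts in each library.

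Of the 9 pathway lists, that of ganglioside breakdown had the highest median level. In the lysosomal list 12 of 13 genes (92.3%) were detected, beside 62.3% of protein-coding genes, with a median of 45.4 ± 1.26 TPM (n = 3). PSAP, the precursor of the saposins that present glycolipids to lysosomal enzymes, had 938 ± 38.3 TPM, and the glucosylceramidase gene GBA2, whose enzyme acts outside the lysosome, had 119 ± 10.6 TPM. HEXA, the alpha subunit of the enzyme that degrades GM2, was the lowest detected gene with 12.6 ± 0.739 TPM, and NEU4 had 2, 2 and 1 counts. Of the genes for O-acetylation of sialic acid, a modification found on GD2, the acetyltransferase gene CASD1 had 33.0, 39.4 and 44.9 TPM and the esterase gene SIAE 12.2, 12.7 and 11.9 TPM, without overlap. CASD1 transcripts have a GC content of 38.5%, and replicate 3 was again the highest.

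**Figure D4:**
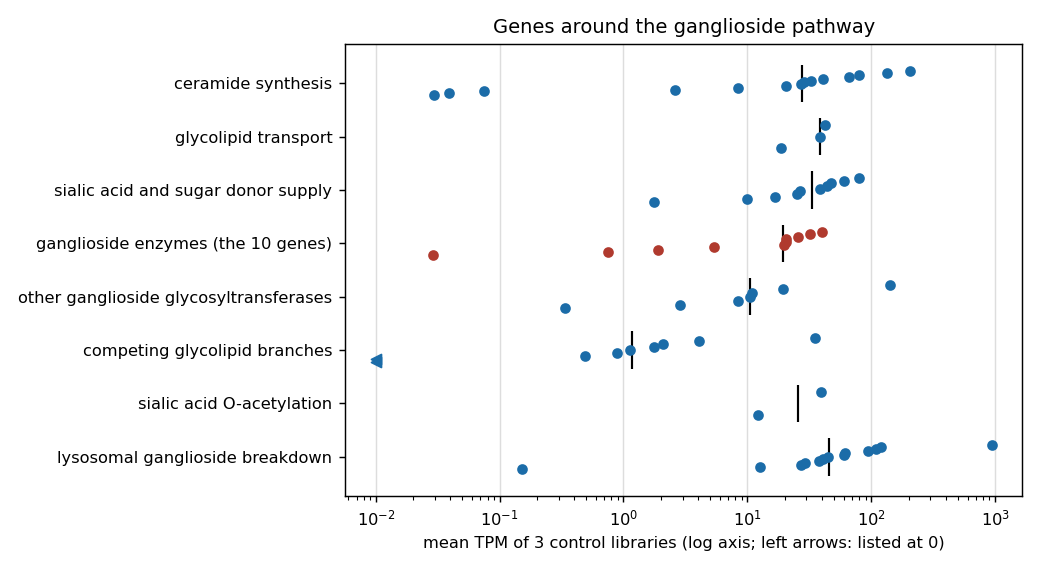
Mean TPM over 3 control libraries (log axis) for each gene of 8 lists around ganglioside metabolism, with 1 point per gene and a vertical line at the mean over libraries of the list's median. The 10 enzymes span from 0.0288 TPM (ST8SIA1) to 40.3 TPM (B4GALNT1), and the left arrows mark A3GALT2 and B3GALNT1, listed at 0.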

How the data were processed

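Messenger RNA was measured in 6 samples, and the 3 control libraries with matching column numbers were used. The table deposited by the authors holds raw counts per Ensembl gene, without normalization. The submitters' processing notes name fastp 0.21.1, STAR 2.7.7a, featureCounts and the build GRCh38, with no settings. Annotation release, strand setting and treatment of shared reads are not given in the sources used here. The 3 count columns with no labelled sample were left out, as were ANK2, whose split entry holds no value in the columns used, and 2 table lines without a gene.

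Detected means 10 or more counts in each library. CPM used TMM factors (edgeR 4.0.16, R 4.3.3). TPM divided counts by the longest transcript in GENCODE release 29, and genes without a length held 0.0555% of counts. Gene positions are those of that release. The trend with GC was the median deviation of each library in 50 GC bins over detected genes averaging 100 or more counts, and its removal was tested on simulated data. Ratios over all counts have exact (Clopper-Pearson) 95% intervals, and intervals cover counting error only. The planned edgeR test of peptide-treated against control samples was left out, as 1 group alone had columns. The 10 genes and all lists were chosen with earlier results of these data known. The naming rule took the 10 genes and the 2 highest and 2 lowest of each list; other genes were named after their values were seen. Genes of like pattern were to be named only with at least 6 libraries. Python 3.11.15, numpy 2.4.6, pandas 2.3.3, scipy 1.17.1 and matplotlib 3.10.9 were used.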

Additional observations from a re-analysis of the deposited data

How the results depend on the processing

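The median level of the 10 genes, 38.9 CPM, moved by less than 1 SD between replicates under RLE size factors, library size alone, mitochondrial genes left out and the GC trend removed, and ranged from 36.1 to 41.0 CPM when 1 library was left out. The number of detected genes, 8, became 9 with the minimum lowered to 5 counts and 10 with 1 count, and was 8 to 9 when 1 library was left out. Of the single genes, NEU3 alone moved in CPM, to 62.6 CPM without mitochondrial genes, which raises all other genes by construction.

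Transcript length had the larger effect. The median per-length level, 19.4 TPM, became 24.1 TPM with merged exons and 16.4 TPM with the principal transcript, the latter chosen after seeing the data, as for all values with that length. The ratio of B4GALT6 to B4GALT5 became 0.189 with merged exons and 0.258 with the principal transcript. As means over libraries, the ratio of ST8SIA1 to ST3GAL5 (0.00555) became 0.00873 without length correction, 0.00983 with merged exons and 0.00398 with the principal transcript, and that of B4GALNT1 to ST8SIA1 (1418) became 815 without length correction and 2607 with the principal transcript. The ratio of B3GALT4 to B4GALNT1 (0.0478) became 0.0145 without length correction and 0.0260 with the principal transcript. ST3GAL2 to B3GALT4 (12.6) became 65.8 without length correction, and ST8SIA5 to ST8SIA1 (25.9) became 36.7 without it, 33.6 with merged exons and 131 with the principal transcript. None of these alternatives brought a ratio to the other side of 1. A mean of 3 values shifts by less than 1 SD when any 1 is dropped, so those fits say nothing about stability.

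No paired analysis was possible because the peptide-treated samples had no matched column. The planned DESeq2, unfiltered, blocked and leave-one-out fits of peptide-treated against control samples, and coding length, were not run. Depth limits ST8SIA1, B3GALT4 and ST8SIA5, which rest on 1 to 38 counts per library.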

Other observations

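Polysialic acid, a long sialic acid chain on the adhesion molecule NCAM, uses the same sugar donor as the gangliosides. NCAM1 was measured at 156, 147 and 149 TPM in control replicates 1, 2 and 3. Of its polysialyltransferases, ST8SIA2 had 12.0, 11.7 and 10.4 TPM, from 252, 260 and 189 counts, while ST8SIA4 had 1, 1 and 0 counts.

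ST6GALNAC6 had 7 counts in replicate 1 and 1 in each of the others. RefSeq places a longer transcribed locus that runs through ST6GALNAC4, ST6GALNAC6 and AK1 across this gene, and how reads on more than 1 gene were counted is not stated, so its level is uncertain.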
